A study of Saccharomyces eubayanus and Saccharomyces cerevisiae x Saccharomyces eubayanus with 20 samples.

Results

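The ATG genes encode the core machinery of autophagy in yeast, the process in which part of the cytoplasm is enclosed in a double membrane and delivered to the vacuole for breakdown. In S. cerevisiae the Atg1 kinase complex starts the process, vesicles with Atg9 and a lipid kinase complex build the membrane, and conjugation of the ubiquitin-like proteins Atg8 and Atg12 expands it. Receptors such as Atg19, Atg34 and Atg32 bind selected cargo to Atg8, and the same machinery runs the cytoplasm-to-vacuole targeting (Cvt) pathway, which carries vacuolar hydrolases in growing cells. Autophagy is known as a response to starvation for nitrogen and other nutrients. The roles given below are those described in S. cerevisiae, apart from that of ATG26, which is taken from its homolog in Pichia pastoris.

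The members were all rows whose standard gene name is ATG followed by digits only, in the expression tables of every strain. This rule found 28 genes, as 28 of 5513 rows for the S. eubayanus strains and 60 of 11292 rows for the hybrid, of which 28 of 5511 lie in the S. eubayanus subgenome (Se) and 32 of 5781 in the S. cerevisiae subgenome (Sc). All 28 rows of the strains and all 60 rows of the hybrid had a mean of at least 1 FPKM (fragments per kilobase of gene model scaled to the mapped reads of a library) and entered the tests. The 4 extra Sc rows arose because ScATG19 is divided into 2 models on chromosome 15 (435 and 759 bp) and ScATG21 into 4 (354 and 1032 bp on chromosome 8, 1203 and 267 bp on chromosome 16). The 4 ScATG21 values are uncertain, since ATG21 is annotated on both of these chromosomes, ambiguously mapped reads were removed by the authors, and how this bears on the models was not tested. Promoter and protein sequences of CDFM21L.1 and CBC-1 were not used here.

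Messenger RNA was measured in 20 libraries from 10 groups of 2 cultures each, grown in shake flasks on synthetic medium with 20 g/L of glucose, maltose or maltotriose. CDFM21L.1 is an S. eubayanus strain, labelled unable to use maltose or maltotriose, and was measured on glucose alone. IMX1765 is CDFM21L.1 with ScMAL13, an S. cerevisiae regulator of maltose genes, expressed from the constitutive ScPGK1 promoter in place of SeSGA1, and IMX1939 in addition lacks the transporter gene SeMALT1, both changes being made on both alleles; both were measured on all 3 sugars, on a background that carries the ScMAL13 cassette in every group. HTSH020 is a hybrid made by mating spores of CDFM21L.1 and S. cerevisiae CBC-1 and was also measured on all 3 sugars. The groups other than CDFM21L.1 on glucose thus differ in sugar within 1 engineered or hybrid strain each, and the labels name no independent isolates of it. The methods give a higher optical density at sampling for maltotriose cultures than for the others, whereas the labels give 12.5 for every library. Where the cultures on maltotriose were denser, density and sugar cannot be told apart.

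Reads on genes, recovered from the FPKM and called reads below, numbered 16874233 to 27175322 per library. The exception was the first maltotriose culture of IMX1765 with 318922. In that shallow library the members rested on few reads, for example 31 for SeATG8, 9 for SeATG1 and 3 for SeATG2. ScMAL13 had 4 to 6 reads in CDFM21L.1 and 226 or more in every engineered library, and SeSGA1 had 36 to 48 against 0 to 7. SeMALT1 had 1 to 46 reads in IMX1939 against 4 to 859 in IMX1765, the 4 being from the shallow library. On glucose it had 1 and 2 reads in IMX1939 against 47 and 36 in IMX1765. On maltose the reads were 35 and 36 against 633 and 642. For 3 of the 6 hybrid libraries (maltose 1, maltotriose 1 and maltotriose 2) 1 description field names another sugar than the title and the carbon source field, which were followed here. In both libraries labelled maltotriose, 56 of the 60 ATG rows lay on the same side outside the range of the glucose libraries. Of all rows 88.6% did so, higher or lower. For the range of the maltose libraries it was 55 of 60 ATG rows and 81.5% of all rows. These counts do not show which sugar the libraries were grown on, and they do not cover maltose 1. The S. eubayanus strains and the hybrid were normalised in separate tables, the hybrid over both subgenomes, so levels are compared within a table only. Groups were compared with limma on log2(FPKM + 1). P-values were adjusted by the method of Benjamini and Hochberg over the whole table, and an adjusted p under 0.05 made a call. The methods call the cultures biological duplicates. An exact permutation test of 2 cultures against 2 cannot give a p below 0.333.

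SeATG8, the ubiquitin-like protein that coats the growing membrane, was the most abundant ATG transcript in CDFM21L.1 on glucose, with 297 and 252 FPKM in the 2 cultures. SeATG33, a mitochondrial membrane protein with a role in the removal of mitochondria, followed with a mean of 112 FPKM, and SeATG27, a partner of Atg9 traffic, with 103 FPKM. The lowest were SeATG11, a scaffold of selective autophagy, with 8.04 FPKM, and SeATG2, a lipid transfer protein, with 4.95 and 4.47 FPKM. On glucose no ATG gene passed between an engineered strain and CDFM21L.1 by limma. IMX1765 had 0 of 28 past the threshold (0.037% of all rows). At an unadjusted p under 0.05 it had 2 (311 of 5404 rows), and with limma voom on reads 0 (12 of 5404 rows). IMX1939 had 0 of 28 (0.222% of all rows), 3 at an unadjusted p under 0.05 (527 of 5404 rows) and 0 with voom (67 of 5404 rows). When only CDFM21L.1 and IMX1765 on glucose entered the fit, 8 of 28 passed, 7 of them higher in IMX1765, and 31% of all rows passed in that fit.

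In IMX1939 part of the ATG genes rose on maltotriose. Against glucose, 10 of 28 were higher by the test (23.8% of all rows were higher) and 0 were lower (16% of all rows), with 0 lower at an unadjusted p under 0.05 and 0 lower with voom. The median log2 change was 0.57 over the ATG genes and 0.05 over all rows, and in 19 of the 28 both maltotriose cultures lay above both glucose cultures (39.6% of all rows did so). The 10 that rose were SeATG11 and SeATG17 of the Atg1 complex and its scaffold, SeATG9, the lipid kinase subunit SeATG14, SeATG3, SeATG4, SeATG7 and SeATG8 of the conjugation systems, the receptor SeATG34 and the vacuolar permease SeATG22. The remaining 18, with SeATG2, SeATG18 and SeATG21 among them, had log2 changes from -0.63 to 0.86.

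SeATG34, a receptor for alpha-mannosidase, lies on chromosome 15 from 148682 to 149893 (plus strand, CDFM21L.1 assembly). In IMX1939 it had 12.9 and 23.0 FPKM on glucose, 62.6 and 72.9 on maltose, then 94.6 and 131 on maltotriose. The 3 sugars did not overlap. Its log2 change was 1.91 (SE 0.36, limma adjusted p = 0.00515) on maltose and 2.62 (SE 0.36, adjusted p = 0.000825) on maltotriose against glucose.

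SeATG7, the E1-like enzyme that activates Atg8 and Atg12, had 10.8 and 16.6 FPKM on glucose, 23.8 and 26.7 on maltose, then 36.2 and 42.4 on maltotriose in IMX1939. It rose by 1.48 (SE 0.43, limma adjusted p = 0.0229) on maltotriose. SeATG3, the E2-like enzyme for Atg8, had 40.6 and 51.1 FPKM on glucose, 76.0 and 74.7 on maltose, then 106 and 101 on maltotriose. Here too the 3 sugars did not overlap, and its log2 changes were 0.71 (SE 0.16, adjusted p = 0.0153) on maltose and 1.17 (SE 0.16, adjusted p = 0.00102) on maltotriose. SeATG22, which exports amino acids from the vacuole, had 16.7 and 26.2 FPKM on glucose, 24.0 and 26.8 on maltose, then 43.0 and 49.3 on maltotriose. Only its maltotriose values stood clear of the others, with a log2 change of 1.10 (SE 0.23, adjusted p = 0.0063) against glucose.

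SeATG8 had 140 and 300 FPKM on glucose, 252 and 241 on maltose, then 366 and 447 on maltotriose in IMX1939. The log2 change on maltotriose was 0.98 (SE 0.32, limma adjusted p = 0.0375), and without the first glucose culture it was 0.43 (adjusted p = 0.291). SeATG9, the transmembrane protein of the seed vesicles, had 11.3 and 13.7 FPKM on glucose, 15.7 and 13.8 on maltose, then 20.3 and 24.8 on maltotriose, a log2 change of 0.80 (SE 0.19, adjusted p = 0.00939) on maltotriose. SeATG1, the kinase that starts autophagy, had 8.60 and 13.2 FPKM on glucose, 8.09 and 7.82 on maltose, then 11.8 and 18.3 on maltotriose. Its glucose and maltotriose cultures overlapped, with a log2 change of 0.43 (SE 0.28, adjusted p = 0.235). SeATG2 had 4.25 and 5.10 FPKM on glucose, 4.85 and 5.07 on maltose, then 8.56 and 10.0 on maltotriose, with a log2 change of 0.86 (SE 0.36, adjusted p = 0.0789).

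The number of calls on maltotriose in IMX1939 depended on single libraries. It was 3 without the second maltotriose culture (12.3% of all rows were then higher) and 4 without the first glucose culture (12.2%), shares of the 28 near those of all rows. With the IMX1765 maltotriose group, which holds the shallow library, left out of the shared estimate of the spread, 17 ATG genes were higher (30% of all rows in that fit), SeATG2 (adjusted p = 0.00238) and SeATG16 (adjusted p = 0.0447) among them, and SeATG23, which acts with Atg9 and Atg27, was lower (-0.63, SE 0.20, adjusted p = 0.0243), as were 22.3% of all rows.

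**Figure D1:**
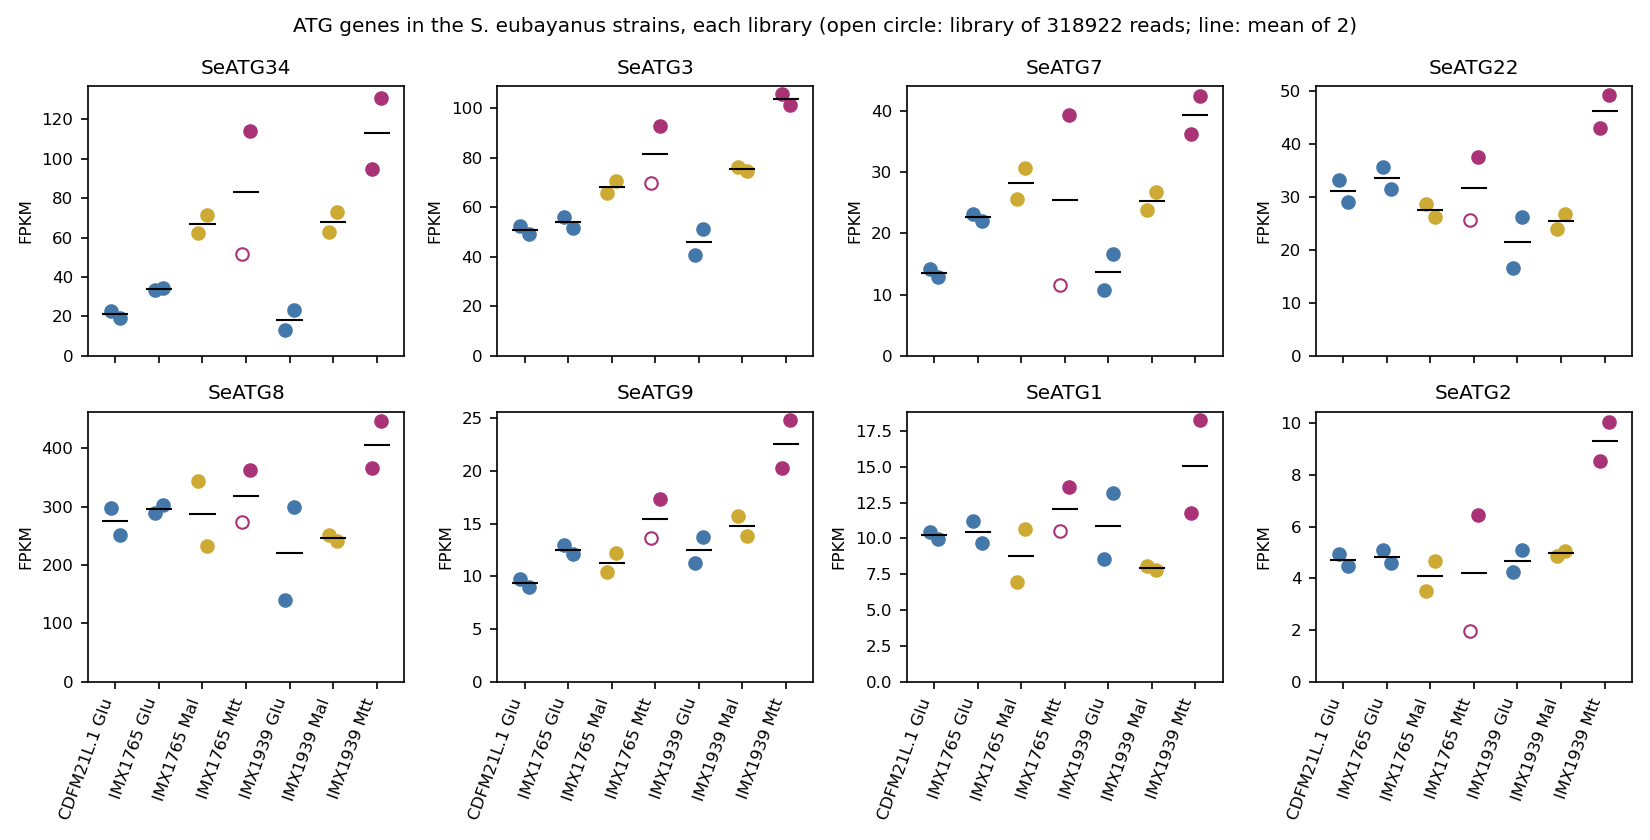
FPKM of 8 ATG genes (vertical axes, from 0) in each library of CDFM21L.1, IMX1765 and IMX1939 on glucose (Glu), maltose (Mal) and maltotriose (Mtt); points are cultures, lines are means of 2 and the open circle is the library of 318922 reads. In IMX1939, SeATG34 and SeATG3 were lowest on glucose and highest on maltotriose with no overlap between the sugars.

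On maltose against glucose, SeATG34 and SeATG3 were the 2 of 28 that rose in IMX1939 (13.8% of all rows were higher). SeATG34 passed without any one of the cultures, whereas SeATG3 did not pass without either maltose culture (adjusted p = 0.0865 and 0.0784) or without the first glucose culture (adjusted p = 0.121), so that 1 call remained in each case (7.61% to 8.23% of all rows were then higher). With the IMX1765 maltotriose group left out of the fit the count was 4, SeATG7 (adjusted p = 0.011) and SeATG4 (adjusted p = 0.0393) in addition, while 19.9% of all rows were higher. With libraries rescaled by their median ratio the median over all rows moved from 0.10 to -0.02, and 1 ATG gene passed as higher and 1 as lower (15.3% of all rows, either direction). Maltotriose against maltose gave 0 of 28 by limma (1.48% of all rows). At an unadjusted p under 0.05 it gave 7 (1275 of 5404 rows, either direction), and with voom 4 (396 of 5404 rows). In 19 of the 28 both maltotriose cultures lay above both maltose cultures (26.6% of all rows did so). These counts share the maltotriose cultures with those against glucose. With the IMX1765 maltotriose group left out of the fit, 5 passed as higher, SeATG22, SeATG2, SeATG14, SeATG9 and SeATG3 (5.14% of all rows were higher).

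In IMX1765 no ATG gene passed in any comparison of sugars by limma. Maltose against glucose gave 0 of 28 (9.34% of all rows), 2 at an unadjusted p under 0.05 (1085 of 5404 rows) and 1 with voom (812 of 5404 rows). With the IMX1765 maltotriose group left out of the fit SeATG34 rose (0.96, SE 0.25, adjusted p = 0.0292) and SeATG32 fell by 0.56 (SE 0.17, adjusted p = 0.0497). These were the 2 of 28 that passed, against 17.9% of all rows. With only the compared groups in the fit 5 of 28 passed, 3 higher and 2 lower, against 34.1% of all rows. Maltotriose against glucose gave 0 of 28 (6.18% of all rows), 4 at an unadjusted p under 0.05 (1302 of 5404 rows) and 4 with voom (928 of 5404 rows). Maltotriose against maltose gave 0 of 28 (0% of all rows), 1 at an unadjusted p under 0.05 (411 of 5404 rows) and 0 with voom (0 of 5404 rows).

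The shallow library and its deep partner differed in the ATG genes of IMX1765 on maltotriose. SeATG34 had 33.3 and 34.4 FPKM on glucose, 62.1 and 71.5 on maltose, then 51.7 (shallow, 20 reads) and 114 on maltotriose. SeATG7 had 23.2 and 22.0 FPKM on glucose, 25.5 and 30.7 on maltose, then 11.6 (shallow, 7 reads) and 39.3 on maltotriose. In the deep culture both genes were above all glucose and maltose cultures of the strain, and in the shallow one SeATG7 was below them all. SeATG3 had 56.0 and 51.7 FPKM on glucose, 65.7 and 70.7 on maltose, then 69.9 (shallow) and 92.8 on maltotriose. SeATG22 had 35.6 and 31.4, 28.7 and 26.2, and 25.7 (shallow) and 37.5 in the same order. The cultures of SeATG8 had 290 and 302 FPKM on glucose, 344 and 233 on maltose, then 275 (shallow) and 363 on maltotriose, and no sugar stood apart. SeATG9 had 12.9 and 12.1, 10.4 and 12.2, and 13.6 (shallow) and 17.4. SeATG1 had 11.2 and 9.70 FPKM on glucose, 6.95 and 10.6 on maltose, then 10.5 (shallow) and 13.6 on maltotriose. SeATG2 had 5.09 and 4.59, 3.51 and 4.65, and 1.97 (shallow) and 6.47, its shallow value being the lowest and its deep value the highest of the strain.

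Without the shallow library, 6 ATG genes passed on maltotriose against glucose in IMX1765, all higher (16.5% of all rows were higher), with the lone culture assumed to vary like the other groups. They were SeATG34 (log2 change 1.72), SeATG4 (0.90), SeATG17 (0.90), SeATG21 (0.82), SeATG7 (0.77) and SeATG3 (0.77). Without the deep culture 5 passed, all lower (7.05% of all rows were lower), SeATG10 (-1.15), SeATG2 (-0.97), SeATG18 (-0.97), SeATG7 (-0.90) and SeATG15 (-0.73). SeATG7 thus passed in opposite directions in these fits.

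The difference between the strains in the response to maltotriose was tested as an interaction, and 0 of 28 ATG genes passed by limma (0.0185% of all rows). At an unadjusted p under 0.05 there were 9 (728 of 5404 rows), and with voom 0 (1 of 5404 rows). The median difference, IMX1939 minus IMX1765, was 0.48 over the ATG genes and 0.07 over all rows. The difference was positive in 26 of 28 ATG genes and in 54.9% of all rows. SeATG22 had the lowest adjusted p of the ATG genes, with a difference of 1.21 (SE 0.33, adjusted p = 0.254). Without the shallow library 0 passed as well, and without its deep partner, when the shallow library alone stood for IMX1765 on maltotriose, 14 of 28 did, against 31.6% of all rows. For the response to maltose 0 of 28 passed (0% of all rows), 1 at an unadjusted p under 0.05 (263 of 5404 rows) and 0 with voom (4 of 5404 rows). Compared directly by limma, IMX1939 and IMX1765 differed in 0 of 28 ATG genes on glucose (1.3% of all rows). At an unadjusted p under 0.05 there were 2 (576 of 5404 rows). By the adjusted p the count was also 0 on maltose (0% of all rows), with 1 at an unadjusted p under 0.05 (495 of 5404 rows). It was 0 on maltotriose too (0% of all rows), with 6 at an unadjusted p under 0.05 (1359 of 5404 rows), and voom gave 0 on each sugar. On maltotriose 16 of 28 passed when the shallow library alone stood for IMX1765 (44.4% of all rows), and 0 without it (0.185%).

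**Figure D2:**
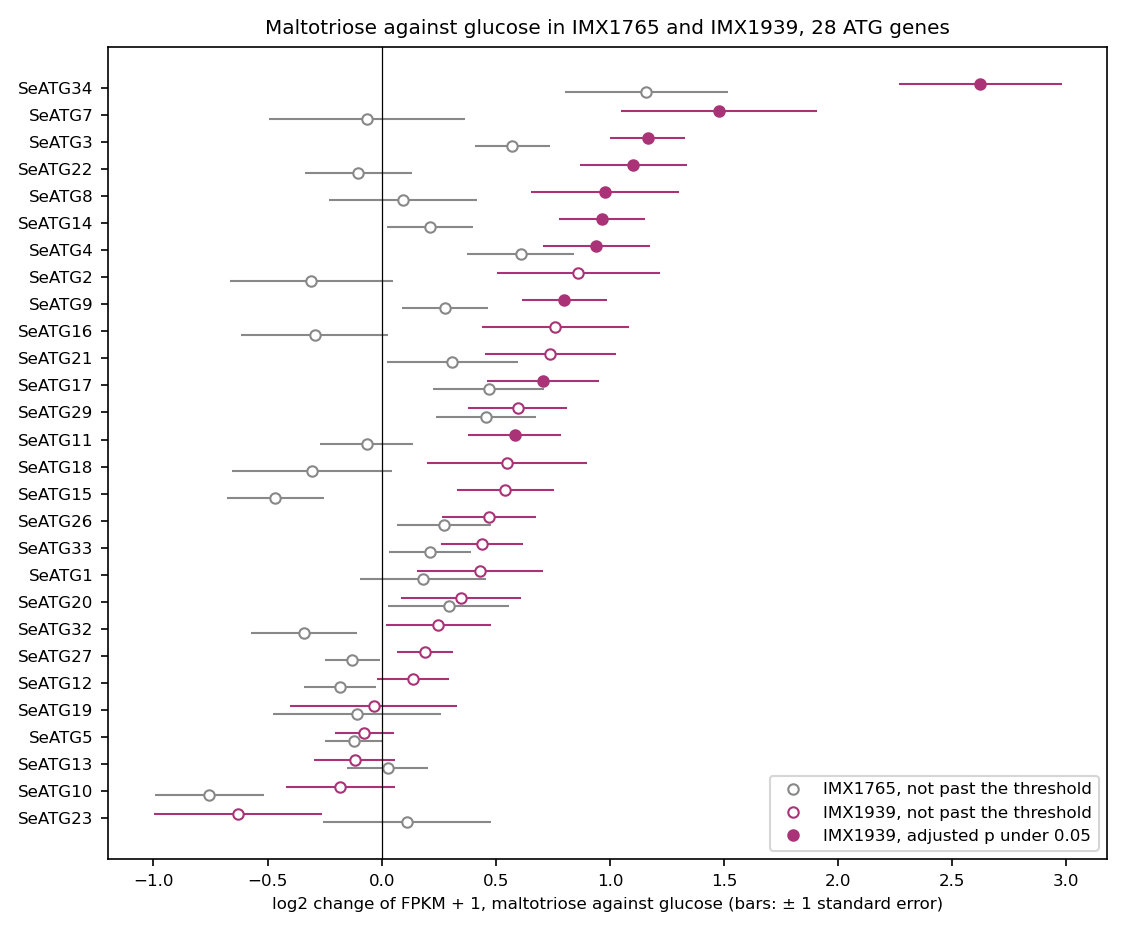
Log2 change of FPKM + 1 on maltotriose against glucose (horizontal axis, bars ± 1 standard error, 2 cultures per group) for the 28 ATG genes in IMX1765 (grey) and IMX1939 (red), filled where the adjusted p was under 0.05. The 10 filled points belong to IMX1939, led by SeATG34 at 2.62, and no point of IMX1765 is filled.

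In the hybrid, nearly the whole set was higher on maltotriose in both subgenomes. Against glucose, 53 of 60 ATG rows were higher by the test (31.3% of all rows were higher) and 0 were lower (39.7% of all rows), with 0 lower at an unadjusted p under 0.05 and 0 lower with voom. The median log2 change was 1.38 over the ATG rows and -0.14 over all rows, which rescaling of the libraries moved to 0.00 with 54 ATG rows called. By subgenome 24 of 28 Se rows rose with a median of 1.24, and 29 of 32 Sc rows with a median of 1.54. For 22 of the 28 genes every row rose, for 5 some rows did, and for ATG13 none did. Leaving out 1 library at a time gave 45 to 51 rows, and joining the models of ScATG19 and of ScATG21 by locus gave 51. The rows that did not pass were SeATG5, SeATG10, SeATG13, SeATG23, ScATG13, ScATG27 and the 354 bp model of ScATG21.

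Every role took part. Of the Atg1 complex and its scaffold (ATG1, ATG11, ATG13, ATG17, ATG29) 4 of 5 Se and 4 of 5 Sc rows rose, of the Atg9 vesicle genes (ATG9, ATG23, ATG27) 2 of 3 in each subgenome, and the lipid kinase subunit ATG14 rose in both. Of the conjugation genes 6 of 8 Se and 8 of 8 Sc rows rose, and of ATG15 and ATG22, which act in the vacuole, all 4 rows. Of the selective autophagy genes (ATG19, ATG20, ATG32, ATG33, ATG34 and, by its Pichia pastoris homolog, ATG26) 6 of 6 Se and 7 of 7 Sc rows rose. Of ATG2, ATG18 and ATG21, which transfer lipids or bind phosphoinositides, 3 of 3 Se and 5 of 6 Sc rows rose.

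The 3 largest changes were in selective autophagy genes. ScATG34 (chromosome 15, 149521 to 150759, plus strand, CBC-1 assembly) had 4.84 and 6.39 FPKM on glucose, 9.72 and 12.4 on maltose, then 167 and 174 on maltotriose. Its log2 change was 0.87 (SE 0.18, limma adjusted p = 0.0259) on maltose and 4.71 (SE 0.18, adjusted p = 2.52e-06) on maltotriose against glucose. SeATG34 had 9.75 and 8.91 FPKM on glucose, 17.9 and 23.6 on maltose, then 103 and 91.4 on maltotriose, a log2 change of 1.06 (SE 0.17, adjusted p = 0.0105) on maltose and 3.25 (SE 0.17, adjusted p = 8.31e-06) on maltotriose. Neither copy overlapped between any of the sugars.

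ScATG33, on chromosome 12 from 885871 to 886464, had 55.8 and 45.1 FPKM on glucose, 56.2 and 66.3 on maltose, then 389 and 415 on maltotriose, and its log2 change was 2.98 (SE 0.15, limma adjusted p = 7.44e-06) against glucose. SeATG33 had 62.7 and 56.2, 64.7 and 81.4, and 263 and 305 in the same order, a log2 change of 2.24 (SE 0.16). ScATG32, the receptor that marks mitochondria for removal, had 13.0 and 10.6 FPKM on glucose, 10.3 and 8.33 on maltose, then 49.4 and 49.8 on maltotriose, and against maltose its log2 change was 2.30 (SE 0.16, adjusted p = 4.04e-05). SeATG32 had 8.22 and 7.60, 5.78 and 4.95, and 24.7 and 26.1. Both ATG32 copies were thus lowest on maltose and highest on maltotriose, although neither passed on maltose against glucose. ATG26, a sterol glucosyltransferase whose homolog in Pichia pastoris is needed for the breakdown of peroxisomes, had 8.38 and 7.43 FPKM on glucose, 8.05 and 7.73 on maltose, then 20.7 and 18.5 on maltotriose in the Se copy. Its Sc copy had 9.36 and 8.67, 8.50 and 8.87, and 14.3 and 15.6.

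**Figure D3:**
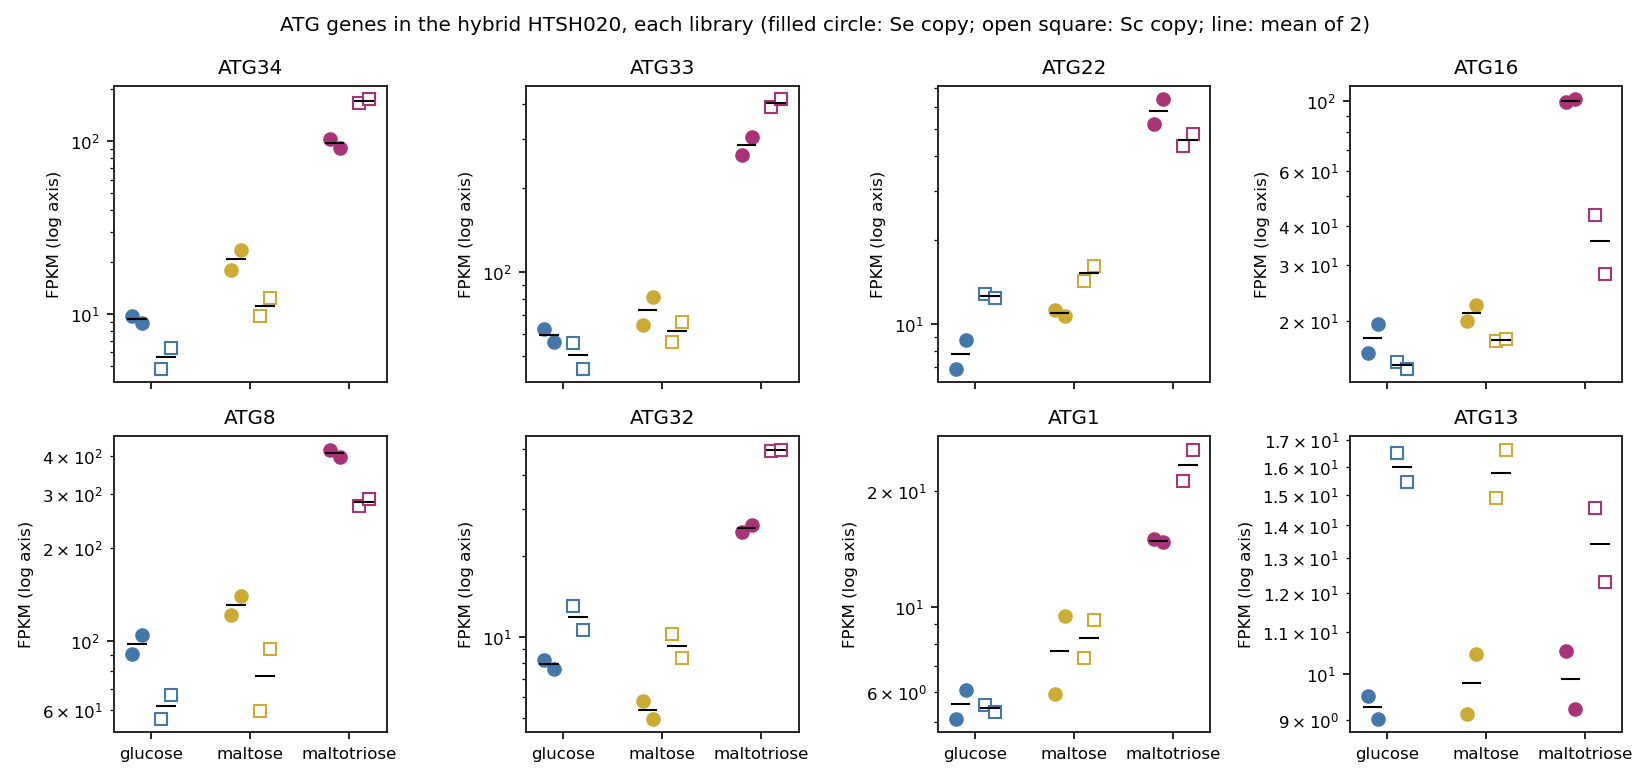
FPKM of 8 ATG genes (vertical log axes) in each HTSH020 library on glucose, maltose and maltotriose; filled circles are Se copies, open squares Sc copies, lines means of 2. For 7 of the genes both copies were highest on maltotriose, and for ATG13 neither copy passed the test.

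Among the conjugation genes, SeATG8 had 90.7 and 105 FPKM on glucose, 122 and 140 on maltose, then 418 and 396 on maltotriose, and ScATG8 had 55.9 and 67.0, 59.3 and 94.5, and 275 and 289. Their log2 changes on maltotriose against glucose were 2.05 (SE 0.13, limma adjusted p = 1.86e-05) and 2.18 (SE 0.22, adjusted p = 0.000136). SeATG16, which joins Atg12 and Atg5 into the complex that sets the site of Atg8 lipidation, had 15.7 and 19.6, 20.0 and 22.4, and 99.6 and 101, and ScATG16 had 14.8 and 14.1, 17.3 and 17.5, and 43.4 and 28.1. The ScATG16 model spans 225 bp and the SeATG16 model 384 bp, against a coding length of 453 bp in the S288C reference, so the level of each copy rests on a shortened model. SeATG7 had 6.15 and 7.82 FPKM on glucose, 9.26 and 11.1 on maltose, then 38.1 and 35.5 on maltotriose, and ScATG7 had 5.04 and 4.63, 5.32 and 7.36, and 23.3 and 22.4. SeATG3 had 22.7 and 25.8, 39.7 and 35.9, and 50.1 and 50.6, with a log2 change of 0.62 (SE 0.13, adjusted p = 0.0308) on maltose, and ScATG3 had 19.1 and 20.4, 25.6 and 32.5, and 46.8 and 51.2.

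ATG10, the E2-like enzyme for Atg12, differed between the copies. SeATG10 had 14.2 and 16.9 FPKM on glucose, 19.2 and 15.2 on maltose, then 13.7 and 18.7 on maltotriose, overlapping throughout, whereas ScATG10 had 6.27 and 4.49, 5.65 and 7.19, and 16.5 and 23.7. SeATG5, the acceptor of Atg12, had 34.5 and 35.0, 34.9 and 29.4, and 39.9 and 42.9, and ScATG5 had 31.2 and 35.0, 36.8 and 29.4, and 66.2 and 69.3. SeATG12 had 13.6 and 12.1, 16.2 and 13.3, and 17.2 and 20.0, and ScATG12 had 13.1 and 16.0, 16.6 and 19.0, and 35.6 and 45.2. For these 3 genes of the Atg12 branch the Sc copy rose by the test, and of the Se copies SeATG12 alone did.

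In the initiation complex, SeATG1 had 5.10 and 6.05 FPKM on glucose, 5.93 and 9.44 on maltose, then 15.0 and 14.7 on maltotriose, and ScATG1 had 5.56 and 5.33, 7.36 and 9.26, and 21.3 and 25.7. The log2 changes on maltotriose against glucose were 1.27 (SE 0.22, limma adjusted p = 0.00157) and 1.92 (SE 0.17, adjusted p = 7.76e-05). SeATG11 had a mean of 2.73 on glucose, 3.71 and 2.51 on maltose and 7.88 and 7.38 FPKM on maltotriose, and ScATG11 had 2.31 and 2.46, 3.07 and 2.85, and 12.1 and 13.2. ATG13, the regulatory subunit through which TORC1 acts on Atg1, was the gene that did not rise. SeATG13 had 9.50 and 9.02 FPKM on glucose, 9.13 and 10.5 on maltose, then 10.5 and 9.24 on maltotriose, and ScATG13 had 16.5 and 15.5, 14.9 and 16.6, and 14.6 and 12.3. Their log2 changes were 0.08 (SE 0.15, adjusted p = 0.646) and -0.24 (SE 0.15, adjusted p = 0.191).

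SeATG9 had 3.72 and 2.92 FPKM on glucose, 3.92 and 3.84 on maltose, then 15.5 and 12.9 on maltotriose, and ScATG9 had 3.25 and 3.14, 4.39 and 4.88, and 20.9 and 20.5. Their log2 changes were 1.82 (SE 0.17, limma adjusted p = 0.000107) and 2.37 (SE 0.14, adjusted p = 1.6e-05). SeATG27 had 56.2 and 56.4, 58.7 and 60.4, and 96.4 and 90.1, while ScATG27 had 66.4 and 64.5, 69.1 and 64.9, and 77.6 and 62.4, the Sc cultures on maltotriose lying on either side of the others. SeATG18, a phosphoinositide binding protein, had 16.4 and 12.0, 17.5 and 17.3, and 39.1 and 35.8, and ScATG18 (a model of 1206 bp against 1503 bp in S288C) had 10.2 and 10.8, 11.2 and 9.70, and 15.6 and 19.3. ATG2, with the lowest mean of its subgenome over the 6 libraries together in both copies, had 3.52 and 2.70, 3.17 and 2.60, and 5.10 and 5.76 FPKM for SeATG2 and 3.60 and 2.60, 3.76 and 3.93, and 5.48 and 6.77 for ScATG2.

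Of the genes that act in the vacuole, SeATG22 had 6.92 and 8.76 FPKM on glucose, 11.2 and 10.7 on maltose, then 52.4 and 63.9 on maltotriose, and ScATG22 had 12.8 and 12.4, 14.3 and 16.1, and 43.4 and 48.1. The log2 change of SeATG22 was 2.74 (SE 0.17, limma adjusted p = 1.73e-05) against glucose and 2.30 (SE 0.17, adjusted p = 4.66e-05) against maltose. SeATG15, the lipase that opens autophagic bodies, had 11.3 and 10.1, 11.7 and 10.1, and 22.2 and 16.4, and ScATG15 had 10.2 and 10.2, 11.6 and 12.4, and 47.6 and 31.2.

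Against maltose, 47 of 60 ATG rows were higher on maltotriose (28.1% of all rows were higher) and 0 were lower (36.7% of all rows), with 0 lower at an unadjusted p under 0.05 and 0 lower with voom. The median log2 change was 1.11 over the ATG rows and -0.15 over all rows, and leaving out 1 library at a time gave 42 to 48 rows. ScATG34 (3.84, SE 0.18), ScATG33 (2.70, SE 0.15), ScATG32 and SeATG22 had the largest changes. Since this comparison and that with glucose share the maltotriose cultures, their counts are not independent.

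On maltose against glucose, SeATG34, ScATG34 and SeATG3 were the 3 of 60 ATG rows that rose (8.47% of all rows were higher), and the median log2 change was 0.25 over the ATG rows and -0.01 over all rows. This count rested on single libraries. It was 17 of 60 without the first maltose culture (33.2% of all rows passed), 16 of them higher. That culture is 1 of the 3 hybrid libraries whose description field names another sugar, and how this bears on the count was not tested. Without either of the glucose cultures the count was 0 (2.69% and 2.77% of all rows). Of the rows always described, SeATG8 (0.51, adjusted p = 0.0292), ScATG8 (0.62, adjusted p = 0.0227), SeATG1 (0.67, adjusted p = 0.0235) and ScATG1 (0.67, adjusted p = 0.0262) were among those that passed without the first maltose culture.

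The copies of a gene were compared within each library as log2(Se FPKM + 1) minus log2(Sc FPKM + 1), over 26 ATG pairs with 1 row in each subgenome among 4615 pairs in all. ATG19 and ATG21 were left out because of their several Sc rows. From glucose to maltotriose the ratio rose for 6 of 26 ATG pairs (26.6% of all pairs) and fell for 10 (31.7% of all pairs), shares near those of all pairs, and leaving out 1 library at a time gave 11 to 15 calls. From glucose to maltose 0 of 26 passed by limma (2.49% of all pairs), with 1 at an unadjusted p under 0.05 (769 of 4615 pairs).

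The 6 pairs whose ratio moved toward the Se copy on maltotriose were ATG16 (1.23, SE 0.22, limma adjusted p = 0.00341), ATG22 (0.97, SE 0.16), ATG18 (0.68, SE 0.21), ATG27 (0.63, SE 0.12), ATG26 (0.54, SE 0.13) and ATG13 (0.32, SE 0.10). For ATG22 the Sc copy was higher in all 4 glucose and maltose libraries, with log2 ratios from -0.81 to -0.32, and the Se copy in both maltotriose libraries, with 0.27 and 0.40. ATG27 changed sides in the same way, from -0.24 and -0.19 on glucose to 0.31 and 0.52 on maltotriose, and so did ATG26, from -0.14 and -0.20 to 0.51 and 0.23. ATG16 had ratios of 0.08 and 0.45 on glucose and 1.18 and 1.81 on maltotriose.

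The 10 pairs that moved toward the Sc copy were ATG10 (-1.67, SE 0.26, limma adjusted p = 0.00178), ATG34 (-1.46, SE 0.17, adjusted p = 0.000552), ATG15 (-1.04, SE 0.14), ATG12 (-0.92, SE 0.20), ATG11 (-0.80, SE 0.15), ATG5 (-0.77, SE 0.11), ATG33 (-0.74, SE 0.11), ATG1 (-0.65, SE 0.16), ATG9 (-0.55, SE 0.14) and ATG32 (-0.42, SE 0.12). For ATG34 the Se copy was higher on glucose (0.88 and 0.42) and maltose (0.82 and 0.87) and the Sc copy on maltotriose (-0.70 and -0.92). For ATG10 the ratio went from 1.06 and 1.70 on glucose to -0.25 and -0.33 on maltotriose, and for ATG33 from 0.17 and 0.31 to -0.56 and -0.44. ATG8 stayed higher in the Se copy in all 6 libraries, with ratios from 0.45 to 1.03.

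**Figure D4:**
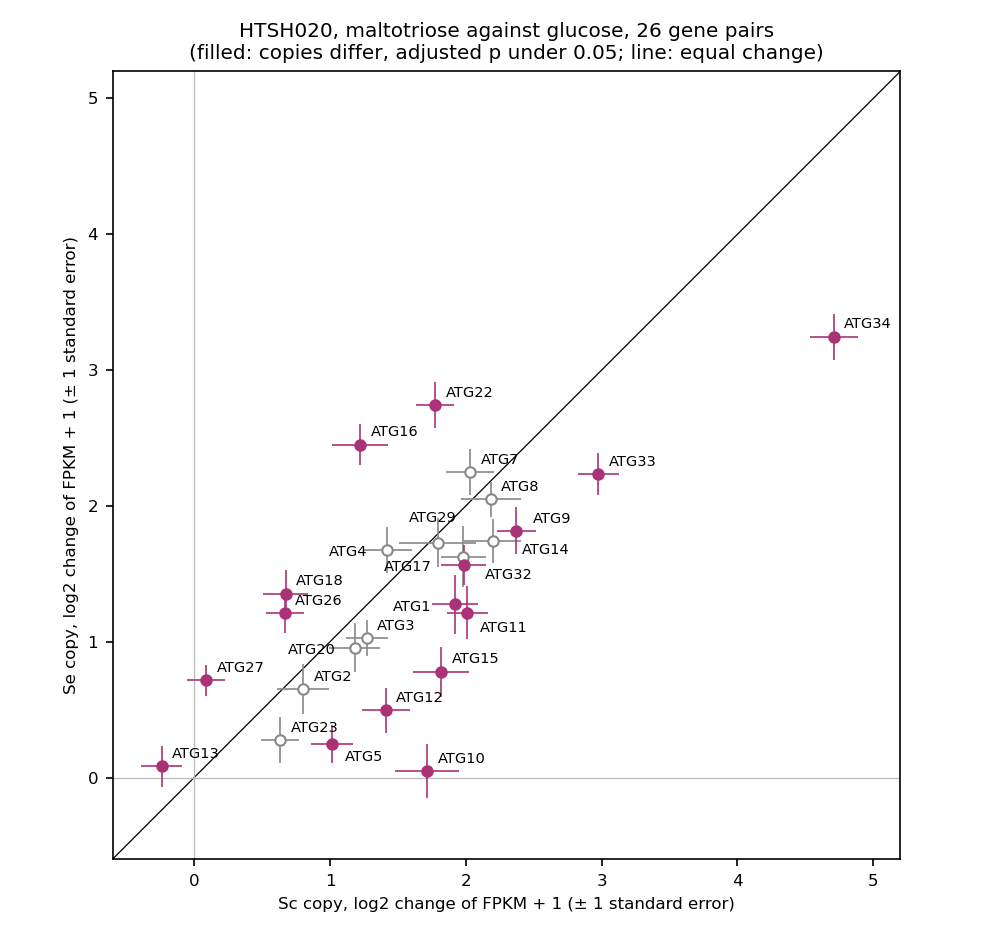
Log2 change of FPKM + 1 on maltotriose against glucose in HTSH020 for the Sc copy (horizontal axis) and the Se copy (vertical axis) of 26 ATG genes, bars ± 1 standard error, with 2 libraries per sugar. Filled points mark the 16 pairs whose ratio changed, 6 above and 10 below the line of equal change, with ATG34 farthest right and ATG10 near 0 for the Se copy.

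Over the 6 libraries together, ATG29, a subunit of the Atg1 complex, was the 1 of 26 ATG pairs whose ratio lay at least 1 log2 unit below the median of all pairs (5.83% of all pairs did so), at -1.60 (SE 0.12, limma adjusted p = 1.9e-05), and no ATG pair lay at least 1 above it. SeATG29 had 6.37 and 8.80 FPKM on glucose, 9.82 and 10.6 on maltose, then 29.0 and 25.4 on maltotriose, and ScATG29 (chromosome 16, 227732 to 228373) had 25.7 and 22.0, 26.8 and 46.4, and 102 and 70.6. The Sc copy was higher in every library. Reads that map equally well to several places were removed by the authors, and how far this lowers either copy of a conserved gene was not tested.

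**Figure D5:**
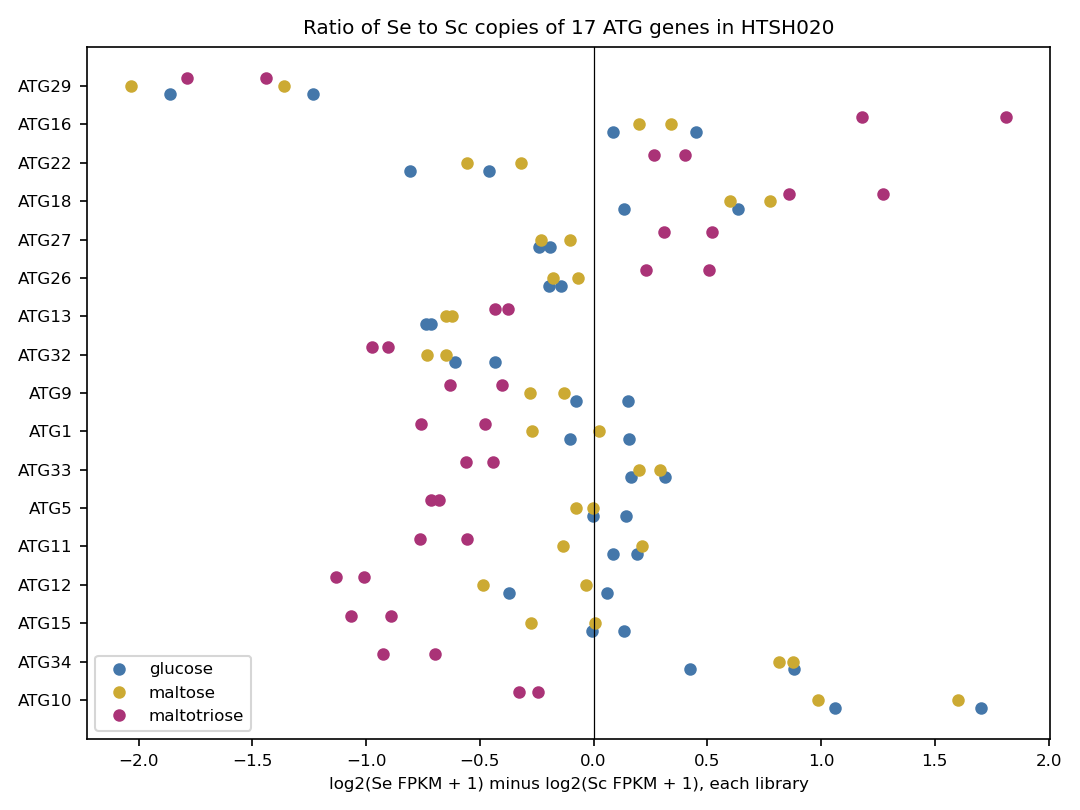
Log2 ratio of Se to Sc copy (horizontal axis, 0 for equal levels) of 17 ATG genes in each of the 6 HTSH020 libraries, coloured by sugar. ATG22, ATG27 and ATG26 lie to the left of 0 on glucose and to the right on maltotriose, ATG10, ATG33 and ATG34 the reverse, and ATG29 lies below -1.2 in every library.

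Other genes of the pathway were taken from lists by function. In IMX1939 on maltotriose against glucose, 8 of 52 listed genes rose and 2 fell (23.8% and 16% of all rows), with a median log2 change of 0.22. In the hybrid 43 of 106 rows rose and 14 fell (31.3% and 39.7% of all rows), with a median of 0.21. By limma 11 of 18 rows of vacuolar hydrolases and Cvt cargo rose in the hybrid and 3 fell, of transcription regulators of ATG genes 6 of 12 rose and 2 fell, of TORC1 and its regulators 8 of 24 rose and 2 fell, and of tethering and fusion factors 10 of 31 rose and 5 fell.

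The largest changes of listed genes were in cargo of the receptors Atg34 and Atg19. SeAMS1, alpha-mannosidase, the cargo of Atg34 and Atg19, had 1.23 and 1.67 FPKM on glucose, 2.85 and 3.46 on maltose, then 84.2 and 64.1 on maltotriose in the hybrid, a log2 change of 4.93 (SE 0.19, limma adjusted p = 2.9e-06), and ScAMS1 had 6.14 and 5.21, 7.54 and 9.05, and 57.9 and 47.5, a change of 3.00 (SE 0.17). In IMX1939 SeAMS1 had 0.719 and 1.56 FPKM on glucose, 7.39 and 7.81 on maltose, then 14.9 and 23.6 on maltotriose, with log2 changes of 2.03 (SE 0.47, adjusted p = 0.0153) and 3.24 (SE 0.47, adjusted p = 0.00111). Of LAP4, aminopeptidase I, the main cargo of Atg19, the Sc copy moved the other way. SeLAP4 was not among the listed genes named for the hybrid. ScLAP4 had 42.4 and 40.6 FPKM on glucose, 44.8 and 58.3 on maltose, then 8.87 and 5.88 on maltotriose in the hybrid, a log2 change of -2.37 (SE 0.21, adjusted p = 7.93e-05). Against maltose, SeAMS1 (4.17, SE 0.19) and ScAMS1 (2.53, SE 0.17) were likewise higher and ScLAP4 (-2.66, SE 0.21) lower on maltotriose. In IMX1765 SeLAP4 fell by 1.02 (SE 0.19, limma adjusted p = 0.00963) on maltose against glucose. On maltotriose it fell by 0.80 (SE 0.19, adjusted p = 0.044), with the library of 318922 reads included.

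SeCPS1, a vacuolar carboxypeptidase, fell on maltose against glucose by 1.21 (SE 0.22, limma adjusted p = 0.00875) in IMX1765, by 1.61 (SE 0.22, adjusted p = 0.000982) in IMX1939 and by 1.42 (SE 0.13, adjusted p = 0.00109) in the hybrid, where ScCPS1 fell by 1.87 (SE 0.16, adjusted p = 0.000774) and ScPHO8, the vacuolar alkaline phosphatase, by 0.58 (SE 0.13, adjusted p = 0.0366). SeBCY1, the regulatory subunit of protein kinase A, rose by 0.97 (SE 0.28, adjusted p = 0.0388) on maltose in IMX1939. On maltotriose SePRC1, carboxypeptidase Y, rose by 1.23 (SE 0.36, adjusted p = 0.0229) and SeAPE3, aminopeptidase Y, by 1.15 (SE 0.40, adjusted p = 0.0442) in IMX1939.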

How the data were processed

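The deposited values are FPKM, 1 table per library. The authors mapped paired reads with STAR 2.5.3a, without soft clipping and with ambiguous reads removed, and derived FPKM with edgeR. Counting is given as htseq-count in the methods and as featureCounts (Subread 1.6.3) in the submitters' processing notes. The S. eubayanus strains were quantified on genes of CDFM21L.1, the hybrid on genes of CDFM21L.1 and CBC-1 together. FPKM times gene length gave whole reads for 100% of values (tolerance 0.05), from which depth was recovered.

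Rows with a mean of at least 1 FPKM were tested with limma 3.58.1 in R 4.3.3 on log2(FPKM + 1), with eBayes and an intensity trend, in 1 fit of 14 S. eubayanus libraries (5404 rows) and 1 of 6 hybrid libraries (10990 rows). Because of the pseudocount, changes of low genes are understated. Tables and figures were made with Python 3.11.15, pandas 2.3.3 and matplotlib 3.10.9. Fits were tested on simulated data. Alternatives were a pseudocount of 0.1 FPKM, no filter, rescaled libraries, a replicate block, only the compared groups, voom on recovered reads, and each library left out; 3 more were chosen after seeing the data (joined Sc models, crossed numbers, the IMX1765 maltotriose group left out).

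Members and lists were chosen with earlier results of these data known. A member's value in every library is given if it passed in a sugar comparison and was among the 4 largest changes of members there, passed an interaction or copy ratio test, or was the highest or lowest in a strain; ATG1, ATG8 and ATG9 are always given. Other members are given by counts and ranges and, where a count is small, by name, chosen after their values were seen. At most 3 listed pathway genes are named per comparison, those with the largest changes.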

Additional observations from a re-analysis of the deposited data

Results flagged for a closer look

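For 7 Se genes, both cultures lay above both glucose cultures in an engineered strain and below them in the hybrid, or the reverse. This difference was not tested because the tables were normalised separately. How many of all Se genes did so was not counted, so the 7 cannot be read as a trait of the ATG genes. The search covered maltose and maltotriose against glucose, in IMX1765 and in IMX1939, each set beside HTSH020. On maltose against glucose the cultures of 69.9% of all rows in IMX1765 and 64.6% in HTSH020 did not overlap, higher or lower. For maltotriose the shares were 53.5% in IMX1765, 71.4% in IMX1939 and 88.6% in HTSH020. On maltose against glucose the log2 changes in IMX1765 and HTSH020 were -0.24 and 0.25 for SeATG16, -0.28 and 0.44 for SeATG22, and -0.13 and 0.40 for SeATG29. On maltotriose against glucose they were -0.066 and 1.21 for SeATG11, -0.47 and 0.78 for SeATG15, and -0.13 and 0.72 for SeATG27, with the IMX1765 values including the library of 318922 reads. For SeATG23 on maltotriose they were -0.63 in IMX1939 and 0.28 in HTSH020. By limma none of the changes in IMX1765 passed, nor did that of SeATG23 in either strain.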

How the results depend on the processing

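Of 122 alternative counts of called ATG genes other than those without 1 library, 107 stayed within 1.5 times the value reported. Most reported counts were 0, and a count that stayed at 0 was scored as unchanged. The 107 thus says little about the counts above 0. With the IMX1765 maltotriose group left out of the fit (chosen after seeing the data), the counts in IMX1939 were 4 on maltose (26.1% of all rows) and 18 on maltotriose (52.3%) against glucose. They were 5 on maltotriose against maltose (13.4%), and 2 in IMX1765 on maltose (17.9%). With voom they were 4, 17 and 4 in IMX1939, against 1197, 2724 and 396 of 5404 rows in all. In IMX1765 voom gave 1 on maltose (812 of 5404 rows) and 4 on maltotriose (928 of 5404 rows) against glucose. Fits of only the compared groups leave fewer libraries for the spread. In IMX1939 they gave 1 on maltose (851 of 5379 rows) and 4 on maltotriose (1177 of 5387 rows) against glucose. They gave 5 in IMX1765 on maltose (34.1% of all rows), 8 for IMX1765 against CDFM21L.1 (31%) and 1 in HTSH020 on maltose (831 of 10886 rows). The replicate block gave 1 in IMX1765 on maltotriose against glucose (479 of 5404 rows) and moved no other count by over 1.5 times. The log2 difference of the first minus the second culture of a group was correlated over genes with that of another group. The correlation was 0.106 to 0.697 within and between IMX1765 and IMX1939. The labels state no link between cultures of the same number, and whether there was one was not tested. With CDFM21L.1 it was -0.463 to 0.179 and in the hybrid -0.137 to 0.258. With crossed numbers (chosen after seeing the data), HTSH020 maltotriose against maltose gave 47 (7259 of 10990 rows) and IMX1939 against CDFM21L.1 0 (29 of 5404 rows).

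Leaving out 1 library at a time gave 0 to 6 calls in IMX1765 for maltotriose against glucose and against maltose, 1 to 2 in IMX1939 on maltose and 3 to 9 on maltotriose, 0 to 16 between these strains on maltotriose, 0 to 14 for their difference in response, 0 to 17 in HTSH020 on maltose, 45 to 51 on maltotriose and 42 to 48 against maltose. Directions changed for SeATG1 in IMX1765 on maltose (-0.52 to 0.023), for SeATG8 in IMX1765 on maltose (-0.35 to 0.22), on maltotriose (-0.11 to 0.29) and between them (-0.12 to 0.44), for SeATG8 in IMX1939 on maltose (-0.28 to 0.81) and for ScATG8 in HTSH020 on maltose (-0.047 to 0.62), none of which were called. The cause was not tested. Rescaling the libraries moved the share of higher calls over all rows from 85.5% to 70.3% in IMX1939 on maltose, from 59.8% to 49.3% on maltotriose and from 74.0% to 64.0% in HTSH020 on maltose. Depth limits the library of 318922 reads, where SeATG2 had 3 reads.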

Other observations

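Autophagy genes that the tables carry under another name (ATG31 as CIS1, ATG41 as ICY2, and ATG36, ATG38, ATG39, ATG40 and ATG42 under their systematic names) were not members, and this list was added after the annotation had been seen. In the hybrid on maltotriose against glucose, 10 of their 13 rows rose and 1 fell by limma (31.3% and 39.7% of all rows), with a median log2 change of 2.94. ScATG36, which marks peroxisomes for removal, rose by 5.22 (SE 0.13, adjusted p = 6.32e-07), ScATG39, a receptor of the nuclear envelope, by 5.00 (SE 0.36, adjusted p = 3.09e-05), and ScATG40, a receptor of the endoplasmic reticulum, by 4.47 (SE 0.20, adjusted p = 4.95e-06). Their Se copies rose by 4.92, 3.41 and 3.91. SeICY2 fell by 1.33 (SE 0.34, adjusted p = 0.0111). In IMX1939 on maltotriose, 4 of the 7 rose (23.8% of all rows), SeATG36 by 2.87 (SE 0.38, adjusted p = 0.000746) and SeATG39 by 2.82 (SE 0.40, adjusted p = 0.00102) with the largest changes. In IMX1765 on maltotriose SeATG36 alone passed (6.18% of all rows in either direction), at 1.54 (SE 0.38, adjusted p = 0.0464).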
